A study of Homo sapiens with 12 samples.

Results

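The 10 genes described here make and recycle the polyamines and the methionine they draw on. They were taken by name from a gene count table of 12 RNA-seq libraries: MTAP, APIP, ENOPH1 and ADI1 of the methionine salvage route, AMD1, SRM and SMS of spermidine and spermine synthesis, and ODC1, SAT1 and AZIN1, which make putrescine, acetylate polyamines and regulate the first of these steps. These were 10 of the 23500 entries in the table, held in 11 rows because ADI1 was listed under a pair of identifiers. All 10 were among the 17162 entries with a summed count of at least 10 over the 12 libraries, which were the ones tested.

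HEK293T is a human embryonic kidney cell line, and R1 is a clone derived from it that can proliferate with homocysteine in place of methionine. Each line was cultured for 12 h in medium with methionine (+Met) or in medium with homocysteine in its place (-Met+Hcy), and each of the 4 groups had 3 libraries. Both media were based on DMEM without methionine and cystine and shared dialyzed serum, vitamin B12, glutamine and cysteine. R1 stands for 1 clone, so what is particular to the clone and what is shared by cells with this ability cannot be told apart, and the labels name the line HEK293T for R1 as well. The labels did not say that the replicates came from separate cultures, so the p-values measure the spread between these libraries, which may be technical.

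Methionine is converted to S-adenosylmethionine, the methyl donor of the cell, and a part of it is decarboxylated by AMD1 to become the donor of aminopropyl groups. SRM moves such a group onto putrescine to form spermidine, and SMS moves another onto spermidine to form spermine. Each transfer leaves methylthioadenosine, which MTAP cleaves and which MRI1, APIP, ENOPH1, ADI1 and a transaminase carry back to methionine. Homocysteine can be remethylated to methionine by methionine synthase, so the 2 media differ in where the methionine of this loop comes from. The study reported that S-adenosylmethionine fell strongly in both lines in -Met+Hcy. The amount of methionine in the cells was not among the values used here.

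The libraries held 12664158 to 18771349 estimated counts. VIM, LIN28B, NEFM, NEFL and INA, usually detected in HEK293T, had at least 102 counts in every library. PAX2 had 3 to 19 counts in the HEK293T libraries and 48 to 99 in those of R1. In +Met NEFM had 324 to 561 counts in HEK293T and 140 to 270 in R1, and INA had 102 to 128 and 275 to 455. Of 6 genes of other cell types, PTPRC, PECAM1 and ALB reached at most 14, 6 and 10 counts and KRT5 was at 0, but the fibroblast genes COL1A1 and COL3A1 had 120 to 722. The summed level of these 6 genes was 19.2 to 25.8 CPM (counts scaled to a common library total) in HEK293T in +Met and 43.2 to 68.2 CPM in R1 in +Met, and 31.1 to 56.4 CPM and 23.1 to 87.5 CPM in -Met+Hcy. Its part in the differences between the lines was not tested.

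Replicate 3 of R1 in -Met+Hcy stood apart from the other libraries. Without it the common dispersion of the fit fell from 0.109 to 0.0349, whereas leaving out any other library gave 0.101 to 0.126. In it 1591 of the tested entries were at 0 that had more than 3 counts in both other replicates. For each library, the deviation from the mean of the other replicates of its group was set against the GC content of the transcript over 11045 genes. Spearman's rho was -0.744 in replicate 3 of R1 in -Met+Hcy, compared with -0.339 to 0.73 in the other 11 libraries. The highest was in replicate 2 of the same group, set against a mean that includes replicate 3. Among the 10 genes, the level in replicate 3 was 2.19 times the mean of replicates 1 and 2 for APIP, 1.73 times for AMD1 and 1.61 times for SMS, and 0.364 times for MTAP and 0.531 times for SRM. AMD1 had the lowest GC content of the 10 (37.86%) and SRM the highest (63.65%), but MTAP, at 38.84%, was low in this library as well. Results are therefore given with and without it. Replicate 2 of R1 in +Met was set apart to a lesser degree, with the highest levels of its group for APIP, ADI1, AMD1, SAT1 and AZIN1 and a rho of -0.339.

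**Figure D1:**
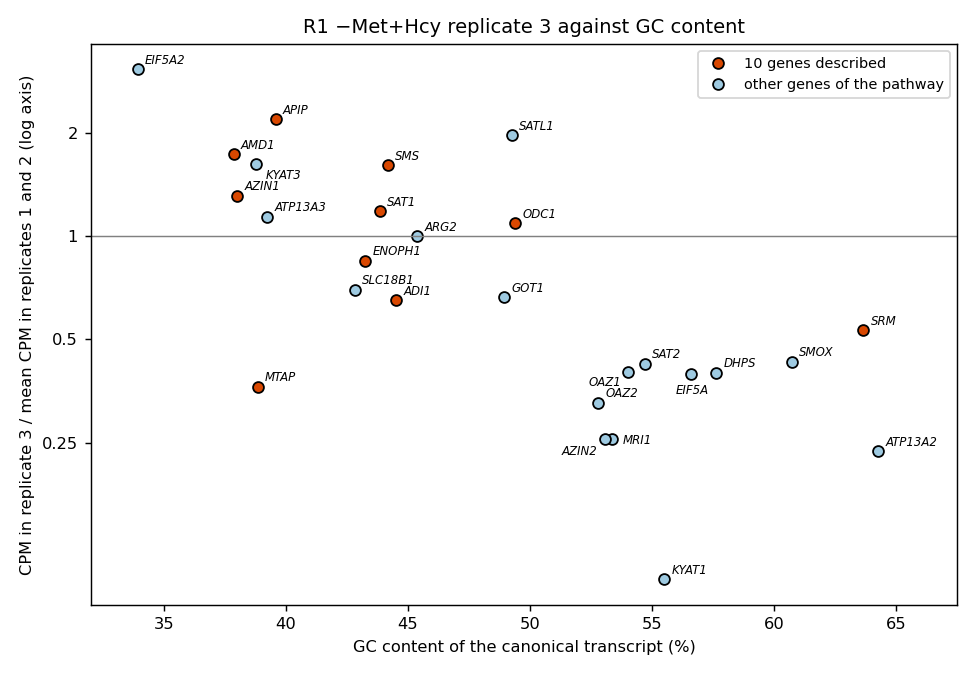
Level in replicate 3 of R1 in -Met+Hcy divided by the mean of replicates 1 and 2 (vertical axis, logarithmic) against the GC content of the canonical transcript in percent (horizontal axis), for the 10 genes described (orange) and 17 other genes of the pathway (blue). A further 7 pathway genes were at 0 in this library and are not drawn; SRM and the pathway genes over 50% GC with a value all lie under 1, whereas APIP, AMD1 and SMS lie over 1.

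Levels are given as CPM of each library's total, and fold changes come from edgeR's quasi-likelihood test with TMM scaling and Benjamini-Hochberg adjustment over all 17162 entries, called at an adjusted p under 0.05. The choice of scaling matters between some of these groups. The TMM factors were 0.8278 to 0.8818 in HEK293T in +Met and 0.9302 to 1.118 in the other 9 libraries. With total counts in place of TMM the median log2 fold change of all entries was 0.33 for HEK293T in -Met+Hcy against +Met and 0.37 for R1 against HEK293T in +Met, compared with 0.03 and 0.02 with TMM. A gene whose CPM was level between these groups therefore has a negative log2 fold change. Since these are bulk libraries, a lower level in fewer cells and less RNA per cell cannot be told apart.

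Per kilobase of canonical transcript, ODC1, the rate-limiting enzyme of putrescine synthesis, and SRM were the most abundant of the 10 in HEK293T in +Met, at 193 ± 9.03 and 189.8 ± 16.5 CPM per kilobase (SD, n = 3). AMD1 followed at 142 and SMS at 92.2 CPM per kilobase. ADI1, APIP and AZIN1 lay at 53.7, 50.9 and 44.4, ENOPH1 at 29.2, SAT1 at 13.3 and MTAP at 5.21 CPM per kilobase. The replicate ranges of ODC1 and SRM overlapped, as did those of ADI1 with APIP and of APIP with AZIN1, so these neighbours were not separated. ADI1 is ranked here by 1 of its entries, at 117.1 CPM in this group. With both entries added it was 164.5 ± 20.1 CPM, so its place here is a lower limit. In HEK293T in -Met+Hcy AMD1 stood at the top, at 214 CPM per kilobase, overlapping ODC1 at 205. In R1 in +Met AMD1 was at 49.2 CPM per kilobase, behind ODC1 (164), SRM (124) and SMS (90.3), with no overlap between these. SAT1 and MTAP held the lowest positions in all 4 groups, with no overlap between them. MTAP, which is deleted in many tumour lines, was transcribed in both lines, with 395 to 527 counts in the 9 libraries of the first 3 groups and 417, 528 and 223 in R1 in -Met+Hcy.

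**Figure D2:**
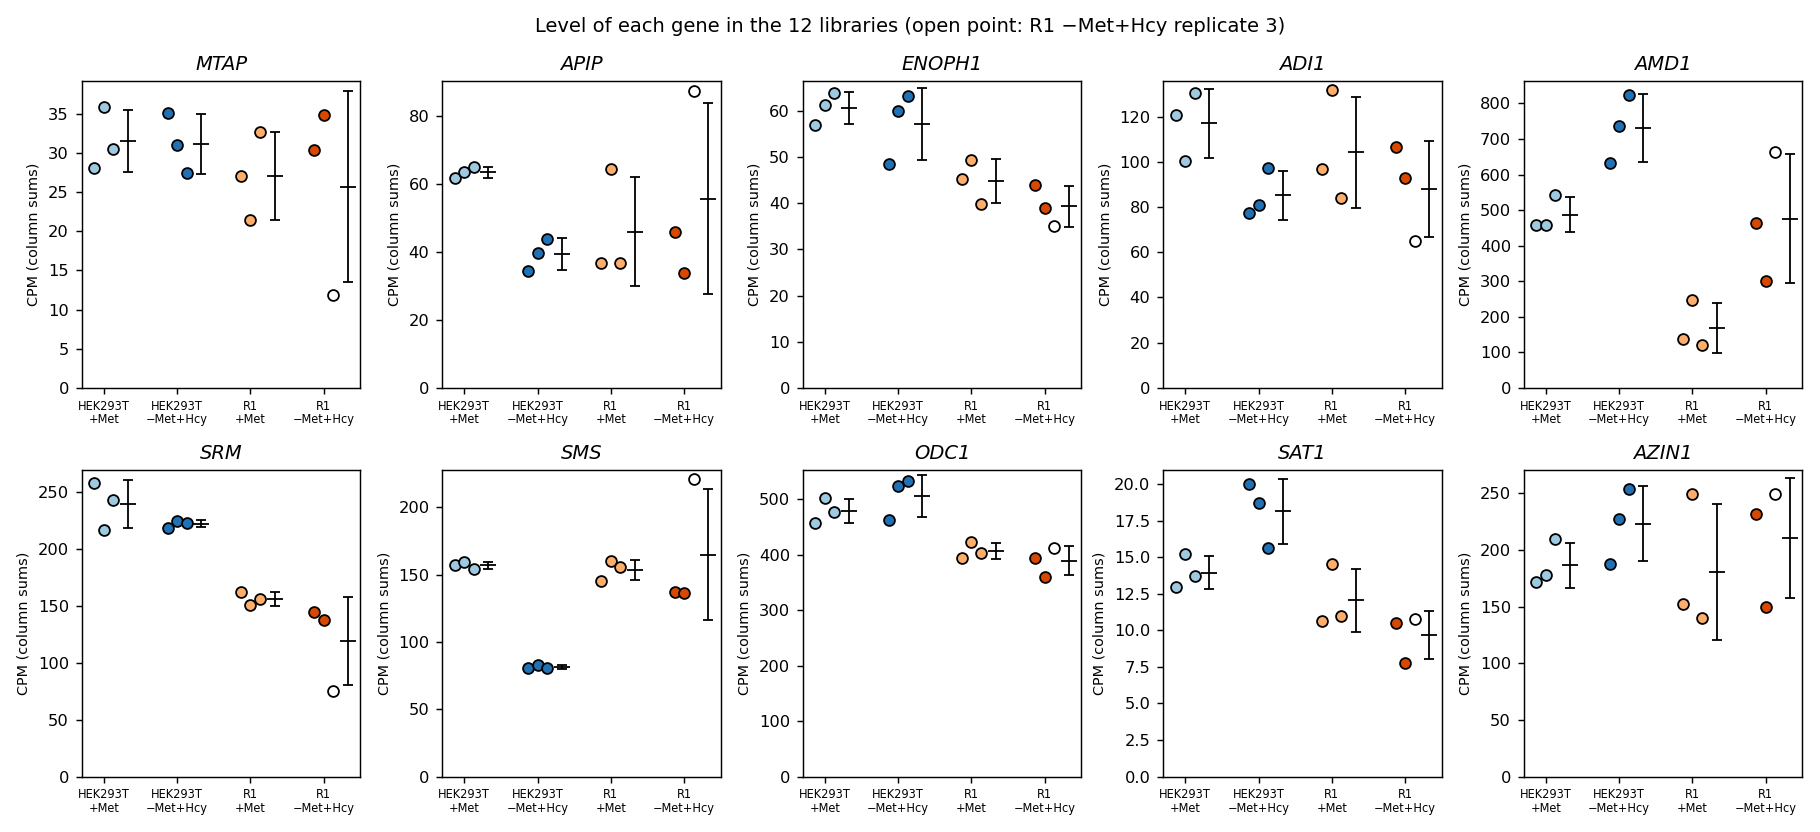
Level of each of the 10 genes in CPM (vertical axes, from 0) in the 4 groups, with a point per library and, beside the points, the mean with its SD (n = 3). SMS lies near 81 CPM in HEK293T in -Met+Hcy and at 137 CPM or more in every other library, AMD1 is lowest in R1 in +Met, and the open point, replicate 3 of R1 in -Met+Hcy, lies away from the other 2 libraries of its group for MTAP, APIP, SRM and SMS.

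The first comparison asks what the exchange of methionine for homocysteine did to these genes in HEK293T, the line that needs methionine. SMS, the spermine synthase, fell to 0.4235 times its level in +Met and was the only 1 of the 10 genes called. Of all entries tested in this comparison 7.03% were called, 4.25% higher and 2.78% lower. SMS also passed with a limit of 1 added on the absolute log2 fold change, as 4.63% of all entries did. SMS stood at 157, 159.6 and 154 CPM in +Met and at 80.6, 83.1 and 80.8 CPM in -Met+Hcy. All 3 libraries in homocysteine lay far under all 3 in methionine, and the spread within either group was small against the gap. The log2 fold change was -1.24 ± 0.239 (SE, n = 3 against 3, adjusted p = 0.0109), and -1.24 ± 0.115 without replicate 3 of R1 in -Met+Hcy (adjusted p = 3.21e-05). The call was lost when replicate 1 or replicate 2 of HEK293T in -Met+Hcy was left out, with adjusted p up to 0.0566.

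SRM, the preceding synthase, was not called. It stood at 258, 217 and 243 CPM in +Met and at 218, 224 and 222 CPM in -Met+Hcy, groups that overlap, with a log2 fold change of -0.41 ± 0.194 (adjusted p = 0.242). AMD1, which supplies both synthases with decarboxylated S-adenosylmethionine, stood at 459, 458 and 544 CPM in +Met and at 634, 737 and 824 CPM in -Met+Hcy. The groups did not overlap in CPM, but with TMM scaling the log2 fold change was 0.30 ± 0.353 (adjusted p = 0.668), and with total counts 0.59 (adjusted p = 0.248). AMD1 was called under neither scaling.

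APIP and ADI1 of the salvage route were lower in CPM in every homocysteine library than in any methionine library. APIP, the dehydratase of the route, stood at 61.6, 63.6 and 65.1 CPM in +Met and at 34.4, 39.7 and 43.96 CPM in -Met+Hcy. ADI1, the dioxygenase that forms the keto acid precursor of methionine, stood at 121, 100.3 and 130.3 CPM and at 77.4, 80.7 and 97.4 CPM. Neither pair of groups overlapped. The log2 fold changes were -0.98 ± 0.373 for APIP (adjusted p = 0.144) and -0.75 ± 0.230 for ADI1 (adjusted p = 0.0718). Without replicate 3 of R1 in -Met+Hcy, a library outside this comparison that widens the shared estimate of the spread, both passed, with adjusted p = 0.00799 and 0.015.

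In all, 5 of the 10 genes had CPM groups that did not overlap, 2 higher (AMD1, SAT1) and 3 lower (APIP, ADI1, SMS). Of all entries, 48.4% did not overlap, 38.6% higher and 9.8% lower, so the share that was higher was below that of all entries and the share that was lower above it. SAT1, the acetyltransferase that starts polyamine breakdown, stood at 12.95, 15.2 and 13.7 CPM in +Met and 20.0, 18.7 and 15.7 CPM in -Met+Hcy, with a log2 fold change of 0.08 ± 0.232 once scaled. ODC1, MTAP, ENOPH1 and AZIN1 overlapped between the media, with log2 fold changes of -0.37 to -0.03. The median over the 10 genes was -0.34, against 0.03 over all entries, and 8 of 10 were under 0 with TMM and 6 of 10 with total counts, with which ODC1 and AZIN1 turned to 0.08 and 0.26. At an unadjusted p under 0.05 there were 3 of the 10, against 22.4% of all entries. Without replicate 3 of R1 in -Met+Hcy 4 of the 10 were called, all lower (APIP, ADI1, SRM and SMS), where 27.7% of all entries were called.

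In R1, the clone that grows with homocysteine in place of methionine, none of the 10 genes was called between the media by edgeR, and only 0.00583% of all entries were, a single entry. That entry was MAT2A, which makes S-adenosylmethionine from methionine and rose 4.267-fold in R1 (log2 fold change 2.09 ± 0.215, adjusted p = 0.00698) and 2.988-fold in HEK293T (1.58 ± 0.211, adjusted p = 0.00204). Among the 10 genes 1 had an unadjusted p under 0.05, against 7.78% of all entries. This was AMD1, which stood at 137, 249 and 119.6 CPM in +Met and at 464, 302 and 663 CPM in -Met+Hcy. The 3 libraries in homocysteine all lay over the 3 in methionine, although both groups were widely spread. The log2 fold change was 1.57 ± 0.361, a 2.975-fold difference (adjusted p = 0.622 in edgeR's quasi-likelihood test). DESeq2 called it, with an adjusted p of 0.0209 as the lowest of all alternatives. The share of all entries that DESeq2 called in R1 is not given here, so this call cannot be set against it. Without replicate 3 the log2 fold change was 1.13 ± 0.300 (adjusted p = 0.401).

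The other 9 genes had log2 fold changes of -0.38 to 0.37 between the media in R1. SMS, the gene called in HEK293T, stood at 145, 159.8 and 156 CPM in +Met and at 137, 137 and 221 CPM in -Met+Hcy. Its log2 fold change was 0.18 ± 0.235 and became -0.21 ± 0.127 without replicate 3. APIP likewise changed its sign with that library, from 0.37 ± 0.370 to -0.26 ± 0.257. SRM was the other gene besides AMD1 whose groups did not overlap, at 162, 150.1 and 156 CPM in +Met and 145, 137 and 74.8 CPM in -Met+Hcy; the fit gave -0.38 ± 0.194 on the log2 scale (adjusted p = 0.628). That made 2 of 10 genes without overlap, 1 higher and 1 lower, against 10.1% of all entries, 5.22% higher and 4.87% lower. ODC1 stayed within 360.2 to 422 CPM in all 6 libraries of R1, with a log2 fold change of -0.01 ± 0.172.

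Whether the response to medium differed between the lines was tested directly, as the response of R1 minus that of HEK293T. None of the 10 genes was called by edgeR in the fit of all 12 libraries, where 0.0583% of all entries were. SMS had the largest difference of the 10, at 1.42 ± 0.335 on the log2 scale (adjusted p = 0.214). Without replicate 3 of R1 in -Met+Hcy, where SMS was at 221 CPM, the difference was smaller, 1.03 ± 0.169, and was called (adjusted p = 0.013); 1.68% of all entries were called there. DESeq2 on all 12 libraries gave SMS an adjusted p of 0.0109, and the share of all entries it called in this comparison is not given here. For APIP the difference was 1.34 ± 0.525 and for AMD1 1.28 ± 0.501 (adjusted p = 0.443 for both), and without the replicate 0.72 ± 0.341 and 0.83 ± 0.406. The unadjusted p was under 0.05 for 3 of the 10 genes, these 3, against 9.67% of all entries. With TMM 9 of the 10 differences were over 0, but with total counts 6 of 10 were under 0, so the direction of the smaller ones depends on the scaling.

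**Figure D3:**
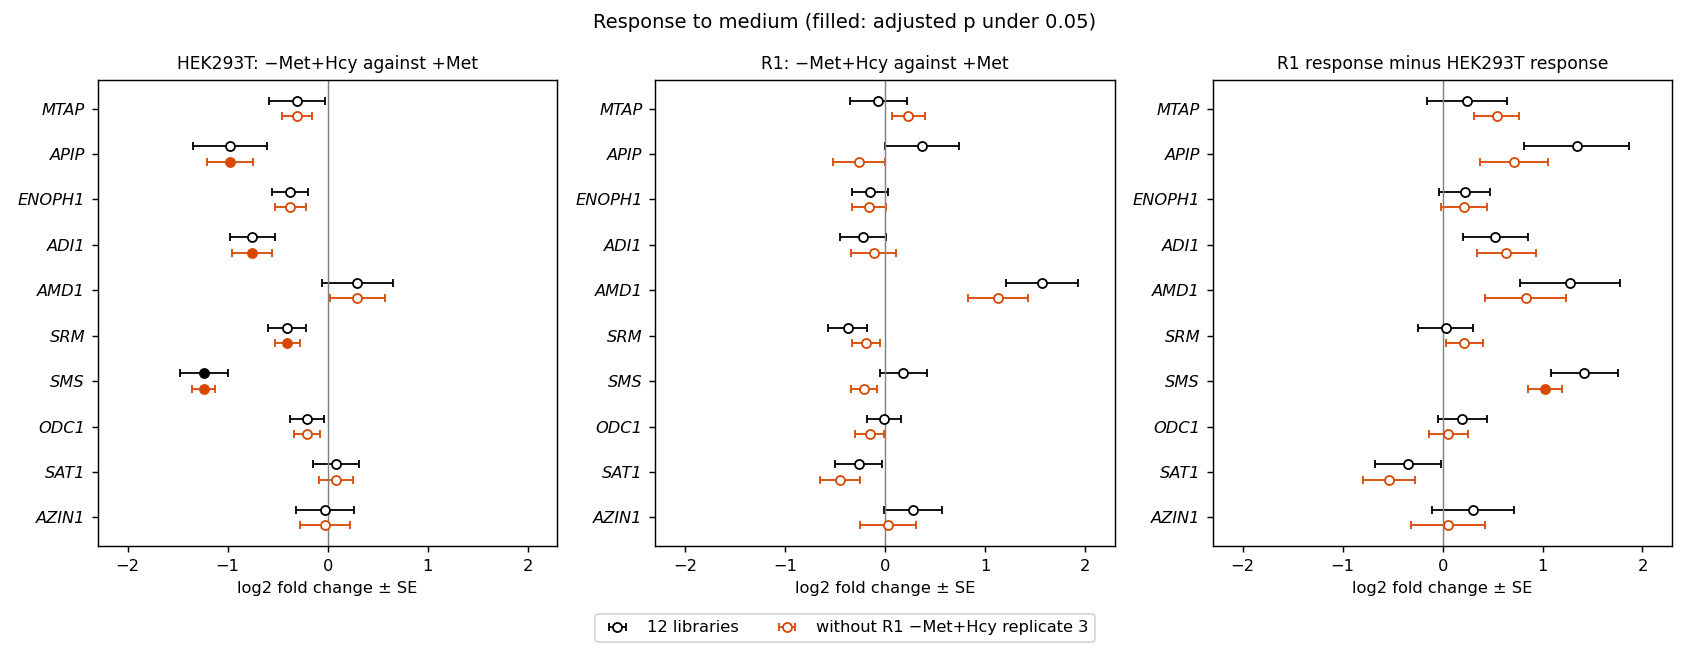
Log2 fold change with its SE (horizontal axis) of each of the 10 genes in -Met+Hcy against +Met in HEK293T (left), in R1 (middle) and as the response of R1 minus that of HEK293T (right), from the 12 libraries (black) and without replicate 3 of R1 in -Met+Hcy (orange); filled points had an adjusted p under 0.05. SMS at -1.24 is the filled black point on the left, AMD1 at 1.57 lies farthest to the right in R1, and SMS is filled on the right only without the replicate.

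The lines themselves were compared next, in each medium. In methionine all 10 genes were lower in R1 than in HEK293T on the log2 scale, from -1.88 to -0.38, and 3 were called, all lower: AMD1, SRM and ENOPH1. Of all entries 10.2% were called, 5.69% higher and 4.48% lower. At an unadjusted p under 0.05 there were 6 of the 10 genes, against 26.1% of all entries, and with a limit of 1 added on the absolute log2 fold change AMD1 alone was called, against 7.66%. The median over the 10 genes was -0.58, against 0.02 over all entries. All 10 remained under 0 with RLE scaling and with total counts, though with total counts they ran from -1.53 to -0.03 and AMD1 alone was called (adjusted p = 0.00818).

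AMD1 had the largest difference, with 459, 458 and 544 CPM in HEK293T against 137, 249 and 119.6 CPM in R1. The highest R1 library, replicate 2, was well under the lowest of HEK293T. The log2 fold change was -1.88 ± 0.365, 0.2726 times the level of HEK293T (adjusted p = 0.00761). The call held when any library but replicate 1 of R1 in +Met was left out, where the adjusted p was 0.0511. SRM stood at 258, 217 and 243 CPM in HEK293T and at 162, 150.1 and 156 CPM in R1. Its groups were far apart too, with a log2 fold change of -0.97 ± 0.196 (adjusted p = 0.00898), and SRM kept its call whichever library was left out. ENOPH1, the enolase-phosphatase of the salvage route, stood at 57.0, 61.3 and 63.9 CPM in HEK293T and at 45.3, 49.4 and 39.96 CPM in R1, with a log2 fold change of -0.79 ± 0.181 (adjusted p = 0.0181). Its call was lost without replicate 1 or 3 of either group compared, with adjusted p up to 0.0924.

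ODC1 was the fourth gene without overlap in +Met, at 458, 502 and 476 CPM in HEK293T and 394, 422 and 404 CPM in R1. All 4 genes without overlap were lower in R1, while 47.2% of all entries did not overlap, 38.1% higher and 9.15% lower. The log2 fold change of ODC1 was -0.59 ± 0.173, just over the threshold (adjusted p = 0.0507). For MTAP, APIP, SAT1 and ADI1 it lay between -0.81 and -0.52, and for SMS and AZIN1 it was -0.38 and -0.39, with overlapping CPM groups. Without replicate 3 of R1 in -Met+Hcy 8 of the 10 were called, all lower and all but ADI1 and AZIN1, where 32.7% of all entries were called.

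In homocysteine 3 of the 10 genes were called between the lines, SMS higher in R1 and SRM and SAT1 lower, where 14% of all entries were called, 7.2% higher and 6.76% lower. At an unadjusted p under 0.05 there were 5 of the 10, against 29.5% of all entries, and with the limit of 1 on the absolute log2 fold change SMS alone, against 9.95%. SMS stood at 80.6, 83.1 and 80.8 CPM in HEK293T and at 137, 137 and 221 CPM in R1. No R1 library came near the HEK293T group, and the log2 fold change was 1.04 ± 0.238 (adjusted p = 0.0133), or 0.65 (fold 1.565) without replicate 3 (adjusted p = 0.00218). SRM stood at 218, 224 and 222 CPM in HEK293T and at 145, 137 and 74.8 CPM in R1, with a log2 fold change of -0.94 ± 0.196 (adjusted p = 0.00796), or -0.76 ± 0.143 without replicate 3 (adjusted p = 0.00187). SRM was thus lower in R1 in both media, and its responses to medium differed by 0.03 ± 0.275.

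SAT1 stood at 20.0, 18.7 and 15.7 CPM in HEK293T and at 10.5, 7.78 and 10.8 CPM in R1, so that every R1 library lay under every HEK293T library, with a log2 fold change of -0.90 ± 0.235 (adjusted p = 0.0246). It rests on 118 to 319 counts per library. The calls of SMS and SAT1 in homocysteine were lost without any 1 of the 3 HEK293T libraries, and that of SAT1 without replicate 2 of R1 as well, with adjusted p up to 0.057 and 0.09. With only the 6 libraries of this comparison in the fit, none of the 3 passed, with adjusted p of 0.114 for SMS, 0.0886 for SRM and 0.136 for SAT1. AMD1 was at 634, 737 and 824 CPM in HEK293T and 464, 302 and 663 CPM in R1, and the groups overlapped only through replicate 3. Its log2 fold change was -0.60 ± 0.354 (adjusted p = 0.28), and -1.04 ± 0.314 without replicate 3 (adjusted p = 0.025). ENOPH1 and ODC1, both lower in every R1 library than in any HEK293T library, had -0.56 ± 0.181 (adjusted p = 0.0577) and -0.39 ± 0.173 (adjusted p = 0.155). Of the 10, 5 did not overlap, 1 higher and 4 lower, against 31.7% of all entries, 13.9% higher and 17.8% lower. Without replicate 3, 6 of 10 were called, SMS higher and ENOPH1, AMD1, SRM, ODC1 and SAT1 lower, where 30.3% of all entries were called. AZIN1, which binds antizyme and so spares ODC1 from degradation, was called in no comparison, with or without the replicate; it stood at 139.8 to 254 CPM over all 12 libraries.

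**Figure D4:**
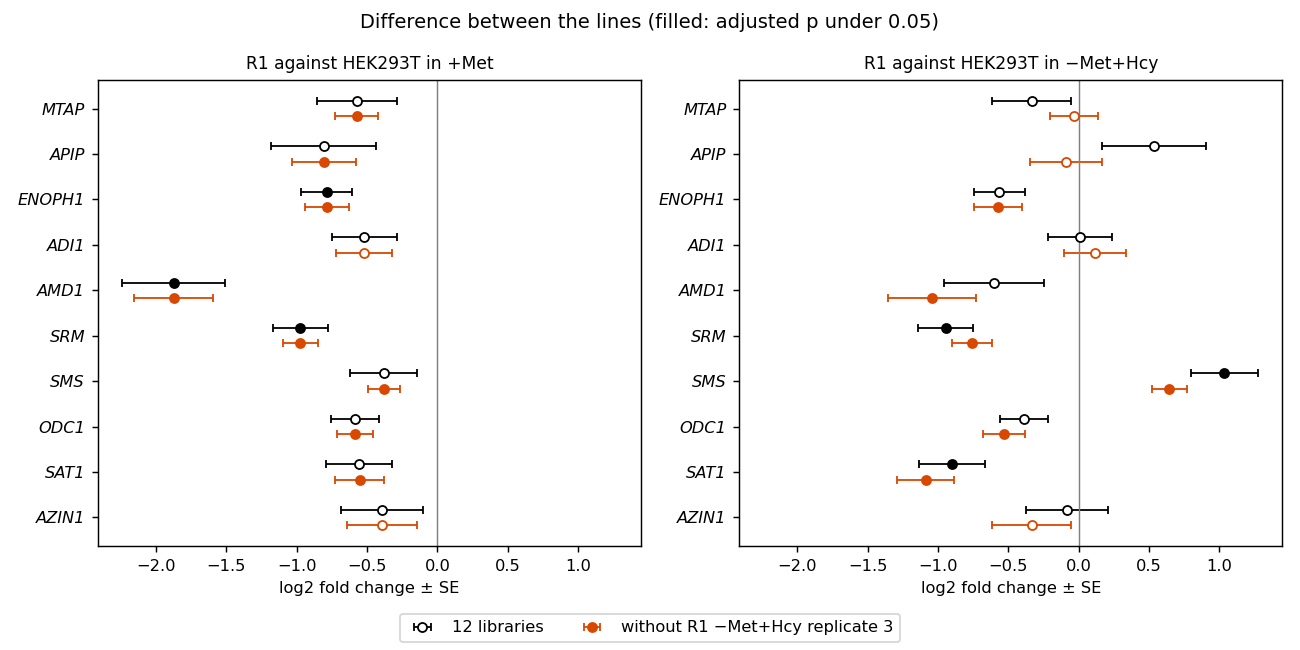
Log2 fold change with its SE (horizontal axis) of each of the 10 genes in R1 against HEK293T in +Met (left) and in -Met+Hcy (right), from the 12 libraries (black) and without replicate 3 of R1 in -Met+Hcy (orange); filled points had an adjusted p under 0.05. All points on the left lie under 0, AMD1 farthest at -1.88, and on the right SMS lies over 0 at 1.04 while SRM and SAT1 are filled under 0.

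The 3 genes called lower in R1 in methionine, and SMS, called in the medium comparison, are shown here by the 250 bases upstream of their RefSeq transcript start. They are shown because the windows of the 3 genes called lower together differ in a motif, and SMS is set beside them as the gene called in the other comparison. The sequences are from RefSeq on GRCh38.p14, written 5' to 3' on the strand of the gene, and capitals mark the E-box CACGTG, a palindrome read the same on both strands that is bound by MYC, MAX and related factors. SRM lies on the minus strand, with its window at chr1:11060019-11060268, ENOPH1 on the plus strand at chr4:82430340-82430589, AMD1 on the plus strand at chr6:110874534-110874783 and SMS on the plus strand at chrX:21940459-21940708.
SRM: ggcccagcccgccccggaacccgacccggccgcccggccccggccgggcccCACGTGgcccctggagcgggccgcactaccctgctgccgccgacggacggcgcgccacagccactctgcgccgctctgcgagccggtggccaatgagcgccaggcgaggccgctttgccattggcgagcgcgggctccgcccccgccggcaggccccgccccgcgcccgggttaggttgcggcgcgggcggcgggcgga
ENOPH1: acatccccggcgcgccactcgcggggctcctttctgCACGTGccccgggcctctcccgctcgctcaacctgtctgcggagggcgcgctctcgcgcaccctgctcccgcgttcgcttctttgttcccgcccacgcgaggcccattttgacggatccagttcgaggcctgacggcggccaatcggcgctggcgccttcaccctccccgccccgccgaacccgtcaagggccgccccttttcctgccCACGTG
AMD1: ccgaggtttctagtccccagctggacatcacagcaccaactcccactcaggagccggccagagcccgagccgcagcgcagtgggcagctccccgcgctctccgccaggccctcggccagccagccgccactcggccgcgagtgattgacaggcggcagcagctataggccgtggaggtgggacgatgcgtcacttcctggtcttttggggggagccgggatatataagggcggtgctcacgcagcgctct
SMS: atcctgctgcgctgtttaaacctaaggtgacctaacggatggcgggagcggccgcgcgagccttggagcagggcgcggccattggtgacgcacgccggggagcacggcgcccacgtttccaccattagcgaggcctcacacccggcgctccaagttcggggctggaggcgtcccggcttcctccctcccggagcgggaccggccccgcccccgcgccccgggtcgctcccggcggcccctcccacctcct
An E-box was found at position -199 from the start in SRM and at -214 and -6 in ENOPH1, and none in AMD1 and SMS. The window of AZIN1 was not searched. Over the other 9 of the 10 genes, it occurred in 3 (ENOPH1, ADI1 and SRM), and over all 34943 RefSeq windows of this length in 6.32%. The 9 windows had 50% (MTAP) to 82% (SRM) GC, and all RefSeq windows were not matched to them in GC content. Whether the E-box is more frequent in the 9 was not tested. The E-box was also present at -236 in MRI1, the isomerase of the salvage route. The element TGATGNAA, the core bound by ATF4, searched on both strands, occurred in none of the 9 windows and in 3.15% of all windows. A match is a run of letters and not a measured binding site, and enhancers, introns and other start sites were not searched.

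Of 24 other genes of the salvage and polyamine routes, none was called between the media in either line or in the difference of responses, where 7.03%, 0.00583% and 0.0583% of all entries were. At an unadjusted p under 0.05 there were 3, 1 and 3, against 22.4%, 7.78% and 9.67% of all entries. DESeq2 called 2, 0 and 0 of the 24, and the share of all entries it called is not given here. Between the lines, with all 12 libraries, 4 were called in +Met (MRI1, OAZ1, SATL1 and SLC18B1) and 3 in -Met+Hcy (MRI1, OAZ1 and SMOX), all lower in R1, where 10.2% and 14% of all entries were called. Without replicate 3 of R1 in -Met+Hcy, 8 were called in +Met, 2 higher (OAZ3 and PAOX) and 6 lower, against 32.7% of all entries. In -Met+Hcy 9 were then called, 3 higher (OAZ2, AZIN2 and PAOX) and 6 lower, against 30.3% of all entries. MRI1, which completes the set of salvage enzymes, stood at 87.0, 90.1 and 97.9 CPM in HEK293T in +Met and at 47.8, 56.1 and 42.6 CPM in R1. These groups were well apart, with a log2 fold change of -1.26 ± 0.350 (adjusted p = 0.0403), and in -Met+Hcy it was -1.14 ± 0.350 (adjusted p = 0.0487). Both calls of MRI1 lay near the threshold and were lost without most single libraries, with adjusted p up to 0.156 and 0.141. OAZ1, the main antizyme, which targets ODC1 for degradation, stood at 771, 633 and 776 CPM in HEK293T in +Met and at 354, 424 and 325 CPM in R1. Every R1 library was lower, with a log2 fold change of -1.34 ± 0.277 (adjusted p = 0.0107), and in -Met+Hcy it was -1.35 ± 0.278 (adjusted p = 0.00757).

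SMOX, the spermine oxidase, was called in homocysteine alone. It stood at 23.2, 24.2 and 19.0 CPM in HEK293T in -Met+Hcy and at 9.18, 9.09 and 3.94 CPM in R1, with a log2 fold change of -1.63 ± 0.300 (adjusted p = 0.0041). SLC18B1, a vesicular polyamine transporter, had a log2 fold change of -0.68 ± 0.178 in +Met (adjusted p = 0.0304). SATL1, related in sequence to SAT1, had -1.54 ± 0.413 (adjusted p = 0.0344) on 21 to 84 counts per library. Both were lost without most single libraries, with adjusted p up to 0.147 and 0.109, while OAZ1 in +Met was lost only without replicate 1 or 3 of R1 in +Met, at up to 0.061, and OAZ1 and SMOX in -Met+Hcy were called whichever library was left out. With only the 6 libraries of the -Met+Hcy comparison in the fit, MRI1, OAZ1 and SMOX all missed the threshold, with adjusted p of 0.207, 0.0794 and 0.0508. The median of the 24 genes was -0.34 in +Met and -0.43 in -Met+Hcy, against 0.02 and -0.01 over all entries. Without replicate 3 of R1 in -Met+Hcy it was -0.34 in +Met and -0.306 in -Met+Hcy.

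OAZ3 and PAOX were at 0 in replicate 3 of R1 in -Met+Hcy. With all 12 libraries, TMM scaling and the summed count of at least 10 they were called in no comparison by edgeR (PAOX between the lines in +Met passed with another filter or with total counts), but they were called without that replicate, and in HEK293T between the media also with only the 6 libraries compared (OAZ3 with DESeq2 too). They are named for that reason, after their values were seen. OAZ3, an antizyme best known from testis, had 21, 27 and 27 counts in HEK293T in +Met and 185, 187 and 150 in -Met+Hcy, against 64, 60 and 50 and then 70, 62 and 0 in R1. The homocysteine libraries of HEK293T were all higher than any other library. Without the replicate the log2 fold change was 2.51 ± 0.197 in HEK293T (adjusted p = 1.14e-05), and the response of R1 was lower by -2.22 ± 0.289 on the log2 scale (adjusted p = 0.00394). PAOX, an oxidase of acetylated polyamines, had 13, 14 and 13 counts in HEK293T in +Met and 53, 45 and 49 in -Met+Hcy, against 161, 205 and 163 and then 130, 118 and 0 in R1. It was the pathway gene most raised in R1 in +Met, with a log2 fold change of 3.34 ± 0.229 without the replicate (adjusted p = 2.38e-06) and 3.34 ± 0.989 with it (adjusted p = 0.0518). OAZ3 overlaps MRPL9 and TDRKH on the other strand, PAOX overlaps another gene on its own strand, and whether the counting used strand was not stated. Without the replicate 8 of the 24 genes were called in HEK293T between the media, 3 higher (OAZ3, PAOX and SMOX) and 5 lower (MRI1, KYAT3, OAZ2, AZIN2 and EIF5A), where 27.7% of all entries were called, 15.2% higher and 12.5% lower.

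**Figure D5:**
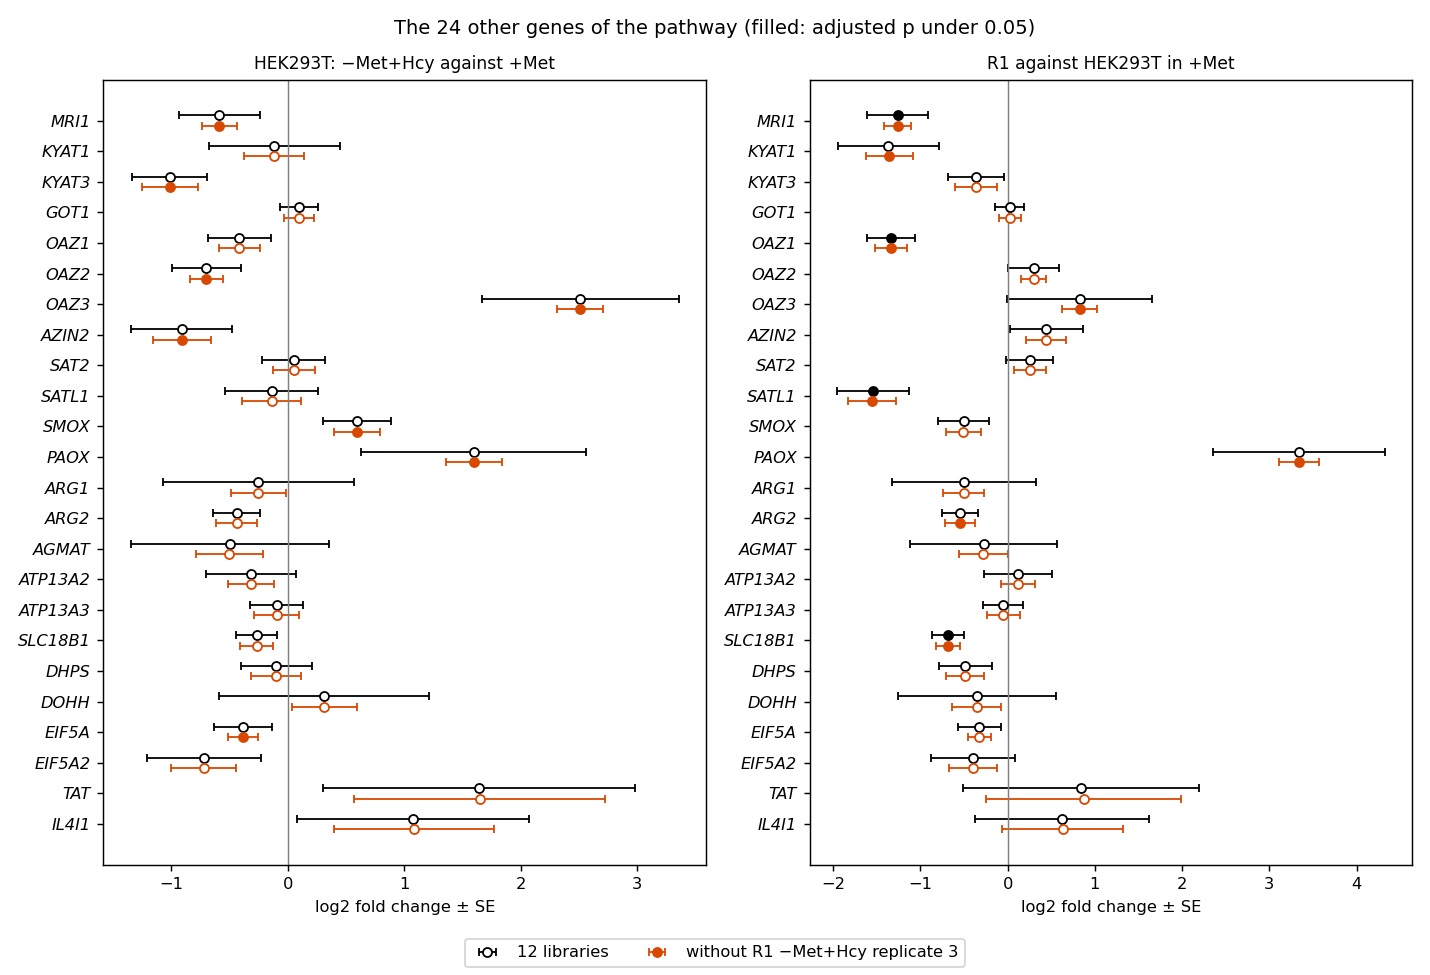
Log2 fold change with its SE (horizontal axes, of different range) of the 24 other genes of the pathway in HEK293T in -Met+Hcy against +Met (left) and in R1 against HEK293T in +Met (right), from the 12 libraries (black) and without replicate 3 of R1 in -Met+Hcy (orange); filled points had an adjusted p under 0.05. MRI1, OAZ1, SATL1 and SLC18B1 are the filled black points on the right, and OAZ3 at 2.51 and PAOX at 3.34 are the farthest to the right in the left and right panels, filled only without the replicate.

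The genes whose levels ran most like those of AMD1, ODC1 and SAT1 were looked up among 11301 genes by Pearson's r of log2 CPM over the 11 libraries without replicate 3 of R1 in -Met+Hcy. These r values are descriptions over 11 points that share the same 4 groups. For AMD1 they were ALG6 (r = 0.973), TRIM13 (0.97) and SH3BGRL (0.968), for ODC1 UTP4 (0.979), NUDT4 (0.977) and ABCE1 (0.972), and for SAT1 EZH2 (0.944), FLVCR1 (0.937) and PCGF6 (0.932). With all 12 libraries ALG6 stayed among the nearest 3 for AMD1 and PCGF6 for SAT1, and the nearest 3 of ODC1 were all replaced. Among the 10 genes themselves r was 0.915 between ODC1 and ENOPH1, 0.86 between SRM and ENOPH1, and -0.631 between SMS and AMD1 over the same 11 libraries.

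Some levels carry limits of the annotation. In the annotation of GRCh38, APIP at chr11:34853094-34916379 overlaps PDHX on the other strand by 551 bases, AZIN1 overlaps an unnamed gene on its own strand, and reads in these stretches could be counted to either gene. MTAP overlaps an unnamed non-coding gene on its own strand by 135016 bases, and that gene had no entry in the count table. ADI1 was listed under ENSG00000182551, at chr2:3497366-3519531 and used throughout, and under ENSG00000280830, which was not found in GENCODE v44 and had 415 to 1009 counts in 11 libraries and 0 in replicate 3 of R1 in -Met+Hcy. With both entries added, the log2 fold change of ADI1 in HEK293T between the media was -0.70 ± 0.273 (adjusted p = 0.152).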

How the data were processed

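Total RNA of HEK293T and R1 cells cultured for 12 h in +Met or -Met+Hcy was sequenced in 12 libraries, 3 per group by the labels. Per the labels and the study's methods, the authors quantified reads with kallisto 0.48.0 on GRCh38 and deposited estimated counts, added up per Ensembl gene and made whole; trimming and strand settings are not given in the sources used here. Values of 23500 entries were used as deposited, with CPM from the column sums. Entries with a summed count under 10 were left out (6338). The remainder were fitted in edgeR 4.0.16 (R 4.3.3; TMM scaling, 1 mean per group, quasi-likelihood test over all 12 libraries) with Benjamini-Hochberg adjustment over all 17162 entries, and called at an adjusted p under 0.05; the SE is the log2 fold change divided by the root of its F statistic. Estimated counts of transcripts with near-identical copies depend on how kallisto shares reads. Identical copies of a listed gene were counted once, while the tests and the shares of all entries kept every entry. GC content and positions came from GENCODE v44 and upstream sequences from the RefSeq table; no protein sequences were used here.

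The 10 genes, the list of 24 pathway genes and the tests were chosen with earlier results of these data known. Named were the 10 genes, MRI1, pathway genes called in at least 1 comparison, MAT2A, and for AMD1, ODC1 and SAT1 the 3 genes with the highest r (log2 CPM with a prior count of 2, mean log2 CPM over 2). Alternatives were DESeq2 1.42.0, only the libraries compared, RLE scaling, total counts, filterByExpr, no filter, identical copies once, a replicate block, a robust spread, a limit of 1 on the log2 fold change, each library left out and, chosen after seeing the data, both ADI1 entries added.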

Additional observations from a re-analysis of the deposited data

How the results depend on the processing

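Among the 10 genes, no called value changed its direction under any alternative. The number called between the media in HEK293T was 1, and was 2 with DESeq2, 4 with only the libraries compared and 0 to 4 when single libraries were left out; in R1 it was 0, and 1 with DESeq2; for the difference of responses it was 0, and 1 with DESeq2 and 0 to 1 with single libraries left out. For R1 against HEK293T in +Met it was 3, and was 6 with only the libraries compared, 1 with total counts, 1 with an added limit of 1 on the absolute log2 fold change and 1 to 8 with single libraries left out. For R1 against HEK293T in -Met+Hcy it was 3, and was 0 with only the libraries compared, 1 with the limit on the fold change and 1 to 6 with single libraries left out. Of the 24 pathway genes, the number called in HEK293T between the media was 0, and was 2 with DESeq2, 9 with only the libraries compared and 0 to 8 with single libraries left out; 0 to 2 were called for the difference of responses with single libraries left out. In +Met 4 were called between the lines, 7 with only the libraries compared, 2 with total counts and 0 to 8 with single libraries left out, and in -Met+Hcy 3 were called, 0 with only the libraries compared and 2 to 9 with single libraries left out. Each of the highest counts with a library left out came without replicate 3 of R1 in -Met+Hcy. Without it 27.7% of all entries were called in HEK293T between the media and 1.68% for the difference of responses. Between the lines 32.7% were called in +Met and 30.3% in -Met+Hcy. For DESeq2 and for only the libraries compared, the share of all entries called is not given here. Those counts therefore cannot be set against all entries.

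Replicate numbers did not pair the libraries: the correlation of deviations between libraries of the same number was -0.718 to 0.594 over 18 pairs, and of different numbers -0.762 to 0.765. With the replicate block, 2 of the 24 pathway genes were called between the lines in +Met in place of 4, and SAT1 was no longer called in -Met+Hcy. RLE scaling, filterByExpr, no filter, identical copies counted once and a robust spread kept each of these counts within 1.5 times. APIP and ADI1 in HEK293T between the media were not called with all 12 libraries. The cause of the departure of replicate 3 was not tested.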
